A study of Saccharomyces cerevisiae with 50 samples.

Results

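Budding yeast cells released from an arrest by alpha factor were followed as they left the first mitosis after release and passed Start for the second time. Alpha factor is the mating pheromone to which MATa cells respond by stopping in G1, and this second entry into S phase was not preceded by such an arrest. It was read as 80, 85 and 90 min after release set against 65, 70 and 75 min, a choice of times made with earlier results of these data known. The comparison used 6 of the 25 time points and 12 of the 50 arrays of the study.

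The cells were of the W303 strain. They were arrested with alpha factor, released into YEPD, a rich glucose medium, and sampled at intervals of 5 min. Every RNA sample was hybridised to 2-colour arrays against RNA of an asynchronous culture grown in YEPD, once with the sample in Cy3 and once with the dyes exchanged. No label gives a genotype or names a second culture, so the spread between the 3 time points of a window is the only error available, and it holds the movement of the cell cycle inside the window. All values below are log2 ratios of sample over asynchronous reference, averaged over the dye pair of a time point. The base of the deposited logarithm and its direction are stated by no label and were inferred, so every fold and every direction rests on that inference. A lower value in a whole culture may come from fewer cells that hold a transcript or from less of it in each cell, and these cannot be told apart.

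In late mitosis and early G1 transcription factors such as Swi5 and Mcm1 drive genes for daughter cell separation and for the loading of the Mcm2-7 helicase on origins. Start follows when G1 cyclin-Cdk activity removes the repressor Whi5 from SBF, a complex of Swi4 and Swi6, while MBF, built from Mbp1 and Swi6, turns on genes of DNA replication. SBF targets serve bud growth and the cell wall, and histone mRNAs appear with S phase itself. Pheromone acts upstream of Start through Far1, which inhibits the G1 cyclin-Cdk complexes.

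Of the 6204 open reading frames tested with limma and Benjamini-Hochberg adjustment, 1 rose at an adjusted p under 0.05 (0.0161%) and 0 fell (0%), while 707 higher and 614 lower frames had an unadjusted p under 0.05. The gene that rose was SPC98, and the second smallest adjusted p was 0.0544. At an adjusted p under 0.10 the counts were 239 higher and 190 lower. With 75 min left out, 163 frames rose and 106 fell at an adjusted p under 0.05, without 80 min 41 and 48, without 90 min 0 and 1, and without 65, 70 or 85 min 0 and 0. Since 1 call leaves the lists undescribed, a plainer measure was added after the data were seen. A frame was counted as apart when its values at 80 to 90 min all lay above, or all below, those at 65 to 75 min in each dye orientation. Among the 6142 frames with all 12 values, 310 were apart and higher at 80 to 90 min (5.05%) and 240 were apart and lower (3.91%). Counts of apart members in the lists below stand beside these shares, and no list was tested against them. The median difference over all frames was -0.00135 over a range of -0.31 to 0.35 between the 5th and 95th percentiles. With 3 time points against 3, an exact permutation test of a single gene could not go below p = 0.10 and was not used.

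The stage lists placed the border of the windows inside the G1 wave. The Start regulators averaged 0.46, 0.38 and 0.28 at 80, 85 and 90 min, against -0.15, 0.21 and 0.47 at 65, 70 and 75 min on the list mean, so their mean at 75 min was already as high as at 80 min. The DNA replication list averaged 0.49, 0.37 and 0.21 at 80, 85 and 90 min, against -0.37, 0.14 and 0.45 at 65, 70 and 75 min. Both lists were low at 65 min and high at 75 min, and their windows overlapped. The mitotic CLB2 cluster averaged -0.29, -0.45 and -0.45 at 80, 85 and 90 min, against 0.64, 0.27 and -0.036 at 65, 70 and 75 min, with 19 of its 21 members at their highest at 65 min. Highest and lowest values are those among the 6 time points compared. Read by these markers, the 80 to 90 min window carried G1/S mRNAs, whereas 65 min still carried mitotic mRNAs and 75 min carried markers of M/G1 and of G1/S together. MATalpha-specific mRNAs, markers of the other mating type, stayed between -0.29 and 0.17 at 80 to 90 min and between -0.29 and 0.16 at 65 to 75 min. These are ratios to an asynchronous culture, so they do not show whether such mRNAs were present.

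**Figure D1:**
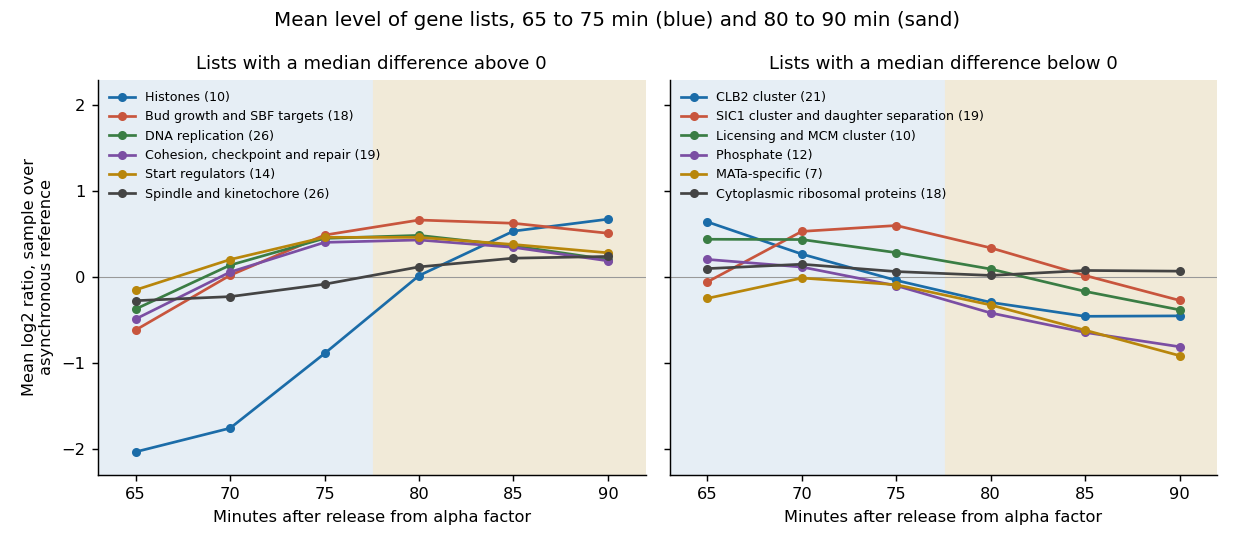
Mean log2 ratio of sample over asynchronous reference for 12 gene lists (number of measured members in brackets) at 65 to 75 min and at 80 to 90 min after release. The histone mean climbs over the whole span and stands at 0.68 at 90 min, against -2.03 at 65 min, while the G1 lists are near their top at 75 min already.

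Histone genes had the largest median difference of the 21 lists. All 8 core histone genes and HHO1, the linker histone gene, were apart and higher at 80 to 90 min, 9 of 10 members, and the list median was 2.24 against -0.00135 over all frames. HTA1, which encodes histone H2A, stood at -0.014, 0.59 and 0.81 at 80, 85 and 90 min, against -2.70, -2.36 and -1.32 at 65, 70 and 75 min. HHF2, an H4 gene, gave 0.24, 0.82 and 0.88 at 80, 85 and 90 min, against -2.32, -1.82 and -0.76 at 65, 70 and 75 min. In both genes each value at 80 to 90 min lay more than 1 log2 unit above each value at 65 to 70 min, and 75 min lay between. The HTA1 difference was 2.59 ± 0.37 (moderated SE of limma, n = 3 time points each, adjusted p = 0.0556), a 6-fold higher level that missed the threshold of 0.05. This error, here and for every ± value, draws a gene's spread toward that of all frames. For genes that vary much within a window it is smaller than their own time points give. The other 7 core genes differed by 1.85 ± 0.33 (HHT2) up to 2.52 ± 0.43 (HTA2), with adjusted p between 0.0556 and 0.0618. HHO1 had 0.17, 0.50 and 0.63 at 80, 85 and 90 min, against -1.08, -1.05 and -0.52 at 65, 70 and 75 min, a smaller step of 1.32 ± 0.18 (adjusted p = 0.0556). HTZ1, the H2A.Z variant that is deposited outside replication, was the exception, with -0.30, -0.11 and 0.031 at 80, 85 and 90 min, against -0.24, -0.31 and -0.31 at 65, 70 and 75 min; its windows overlapped (difference 0.16 ± 0.092, adjusted p = 0.367). All 10 members had their highest value at 90 min. Paired histone genes such as HTA1 and HTA2 are nearly identical in sequence, and the signals of their spots may not be separate.

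Start regulators differed in both directions. CLN3, the cyclin upstream of Start, was the only member apart and lower, with -0.40, -0.83 and -0.85 at 80, 85 and 90 min, against 0.45, 0.12 and -0.27 at 65, 70 and 75 min (difference -0.79 ± 0.20, adjusted p = 0.0882). CLN1 and CLN2, the G1 cyclins that SBF induces, had differences above 0, and CLN2 gave 0.63, 0.77 and 0.67 at 80, 85 and 90 min, against -1.63, -0.23 and 0.56 at 65, 70 and 75 min. CLN2 was lowest at 65 min, and its value at 75 min lay just below those of 80 to 90 min. Its difference was 1.12 ± 0.49 (adjusted p = 0.243), and that of CLN1 was 0.77 ± 0.33 (adjusted p = 0.237). PCL1, a G1 cyclin of the Pho85 kinase, repeated this shape with 0.98, 0.85 and 0.93 at 80, 85 and 90 min, against -0.80, 0.23 and 0.89 at 65, 70 and 75 min. The S-phase cyclin gene CLB6 peaked inside the earlier window, at 1.39 at 75 min, and its difference was -0.06 ± 0.35.

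Among the transcription factors of Start, SWI4 was highest at 75 min, with 0.61, 0.53 and 0.14 at 80, 85 and 90 min, against 0.38, 0.73 and 1.02 at 65, 70 and 75 min (difference -0.28 ± 0.18, adjusted p = 0.423). MBP1, the DNA-binding subunit of MBF, was apart and higher, with -0.18, 0.10 and 0.055 at 80, 85 and 90 min, against -0.35, -0.54 and -0.24 at 65, 70 and 75 min (difference 0.37 ± 0.11, adjusted p = 0.114). NRM1, an MBF co-repressor that is itself an MBF target, gave 0.12, 0.35 and 0.40 at 80, 85 and 90 min, against -0.31, -0.24 and -0.089 at 65, 70 and 75 min and was also apart and higher (difference 0.50 ± 0.10, adjusted p = 0.0618). All values of MBP1 and NRM1 at 80 to 90 min lay above those at 65 to 75 min, while those of SWI4 overlapped. WHI5, the repressor of SBF, differed by 0.53 ± 0.13 (adjusted p = 0.0852), with 0.26 in Cy3 and 0.79 in Cy5. Over the 14 Start regulators 2 were apart and higher and 1 was apart and lower, beside 5.05% and 3.91% of all frames, and the list median was 0.12.

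All 8 regulators that act downstream, in S phase, had differences above 0 (median 0.41), but 1 of 8 was apart. That 1 was NDD1, a coactivator of the mitotic genes, whose difference of 0.52 ± 0.22 rested in part on a single array, since its value at 70 min was -1.79 in Cy3 and -0.53 in Cy5. HCM1, a forkhead activator of S-phase genes, had 0.23, 0.17 and -0.10 at 80, 85 and 90 min, against -0.76, -0.46 and 0.16 at 65, 70 and 75 min and overlapped. TOS4, a SBF and MBF target, had 0.70, 0.75 and 0.54 at 80, 85 and 90 min, against -0.71, 0.14 and 0.68 at 65, 70 and 75 min. YOX1, a repressor of early cell cycle genes, stood at 1.36 at 70 min and 1.35 at 80 min, so its step lay before the border of the windows.

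Bud growth and SBF target genes held 8 members of 18 apart and higher and 1 apart and lower, with a median difference of 0.50. TOS6, a wall mannoprotein, stood at 1.38, 1.51 and 1.34 at 80, 85 and 90 min, against -1.42, -0.48 and 0.54 at 65, 70 and 75 min (difference 1.86 ± 0.43, adjusted p = 0.0773). SVS1, an SBF target in the wall, had 1.51, 1.58 and 1.54 at 80, 85 and 90 min, against -1.03, 0.052 and 1.10 at 65, 70 and 75 min (difference 1.5 ± 0.47, adjusted p = 0.135). Both were more than 1 log2 unit higher at 75 min than at 65 min and varied little from 80 min on. MSB2, a mucin-like sensor upstream of Cdc42, began later, with 0.90, 1.21 and 1.08 at 80, 85 and 90 min, against -0.49, -0.36 and 0.28 at 65, 70 and 75 min (difference 1.25 ± 0.20, adjusted p = 0.0618). AXL2, the axial landmark of bud sites, gave 0.53, 0.51 and 0.52 at 80, 85 and 90 min, against -1.30, -0.39 and 0.36 at 65, 70 and 75 min (difference 0.97 ± 0.36, adjusted p = 0.191), and its windows were apart although 75 min lay only a little below 80 min. PRY2, MNN1, CSI2 and TOS1 completed the group, with differences from 0.49 ± 0.084 (TOS1) to 1.30 ± 0.38 (PRY2). CLA4, a kinase that acts with Cdc42, was apart and lower (difference -0.34 ± 0.10, adjusted p = 0.133). The Cdc42 effectors GIC1 and GIC2 were not apart in both dyes, with differences of 0.31 ± 0.13 and 0.022 ± 0.18.

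The morphogenesis list held 3 of 11 members apart and higher and none lower. SWE1, whose kinase holds back mitosis while the bud is small, had 0.83, 0.79 and 0.60 at 80, 85 and 90 min, against -0.89, -0.35 and 0.32 at 65, 70 and 75 min (difference 1.05 ± 0.27, adjusted p = 0.0968). ELM1, a kinase of the bud neck, had -0.19, -0.074 and -0.041 at 80, 85 and 90 min, against -0.69, -0.54 and -0.44 at 65, 70 and 75 min (difference 0.45 ± 0.083, adjusted p = 0.0618). The septin gene CDC11 was the third, with 0.29 ± 0.093, and under windows moved 5 min earlier its difference was -0.034. The other septin genes CDC3, CDC10, CDC12 and SHS1 were not apart in both dyes and differed by -0.23 ± 0.088 (CDC10) to 0.17 ± 0.067 (CDC3).

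None of the 26 DNA replication genes was apart in both dyes, although 24 of 26 differences were above 0 and the median was 0.25. RNR1, the large subunit of ribonucleotide reductase, stood at 0.82, 0.44 and 0.20 at 80, 85 and 90 min, against -1.31, 0.17 and 1.0 at 65, 70 and 75 min. POL1, the catalytic subunit of polymerase alpha, had 0.84, 0.73 and 0.19 at 80, 85 and 90 min, against -0.78, -0.024 and 0.73 at 65, 70 and 75 min, and POL30, which encodes PCNA, had 0.48, 0.33 and -0.022 at 80, 85 and 90 min, against -1.01, -0.094 and 0.32 at 65, 70 and 75 min. Each was lowest at 65 min and stood higher at 75 min than at 90 min, so the windows overlapped in all 3. CDC21, thymidylate synthase, had the difference furthest from 0 (0.75 ± 0.29, adjusted p = 0.204). Of the 26 genes, 11 were highest at 75 min and 10 at 80 min, and 25 were higher at 75 min than at 65 min. The median step between those times was 0.86, whereas that between 75 and 80 min was 0.0066. With windows moved 5 min earlier, to 75 to 85 min against 60 to 70 min, the list median was 0.81.

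Cohesion, checkpoint and repair genes behaved likewise, with 2 of 19 apart and higher (5.05% of all frames), a median of 0.31, and 0.79 under the earlier windows. MCD1, the cohesin subunit cut at anaphase, stood at 0.98, 0.60 and 0.21 at 80, 85 and 90 min, against -1.11, 0.29 and 0.85 at 65, 70 and 75 min. Its windows overlapped (difference 0.59 ± 0.47, adjusted p = 0.519). CTF18, of a clamp loader for cohesion, was apart by a small margin (difference 0.43 ± 0.19). PDS1, the securin gene, was apart with a difference of 1.59 ± 0.62 (adjusted p = 0.203), of which much lay in 65 min, where it read -1.52 in Cy3 and -3.71 in Cy5.

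Spindle and kinetochore genes held the single call, SPC98, and 10 of 26 members apart and higher with none lower. SPC98 encodes a subunit of the gamma-tubulin complex at the spindle pole body. It stood at 0.28, 0.59 and 0.68 at 80, 85 and 90 min, against -0.82, -0.85 and -1.07 at 65, 70 and 75 min and rose by 1.43 ± 0.12 (adjusted p = 0.0398). The size depended on the dye: the difference was 1.90 in Cy3 and 0.96 in Cy5. At 75 min the gene read -1.89 in Cy3 and -0.24 in Cy5, the widest gap between the dyes among its 6 time points. Between 75 and 80 min, which share a title date in Cy5, the step in Cy5 was 0.38. The call held under 10 of the 18 alternatives with a test, and its adjusted p was 0.128 without 65 min, 0.227 without 70 min, 0.224 without 85 min, 0.0938 without 90 min, 0.0701 in Cy5 alone and 0.0664 with 12 time points in 1 fit. With windows moved 5 min earlier the difference was 0.66 (adjusted p = 0.389), and in Cy5 with the title date as a block it was 0.38 (adjusted p = 0.914). Only 75 and 80 min share a date across the windows in Cy5, so this 0.38 is the step given above and no separate check.

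SPC97, the partner of SPC98 in that complex, had 0.30, 0.49 and 0.30 at 80, 85 and 90 min, against -0.56, -0.44 and -0.10 at 65, 70 and 75 min (difference 0.72 ± 0.13, adjusted p = 0.0618). TUB4, gamma-tubulin itself, peaked at 75 min (0.54) and differed by -0.0058 ± 0.14. SPC97 was apart and higher, whereas TUB4 overlapped. CIN8, a kinesin that separates spindle poles, gave 0.26, 0.48 and 0.34 at 80, 85 and 90 min, against -0.86, -0.73 and -0.19 at 65, 70 and 75 min (difference 0.95 ± 0.17, adjusted p = 0.0618). STU2, a microtubule polymerase, had 0.035, 0.38 and 0.49 at 80, 85 and 90 min, against -0.61, -0.75 and -0.26 at 65, 70 and 75 min (difference 0.84 ± 0.16, adjusted p = 0.0618). Both were apart, with 75 min above 65 and 70 min and below 80 min. KIP3, a kinesin that shortens microtubules, and the ring-complex genes DAM1 and DUO1 were also apart, with differences of 0.44 ± 0.091, 0.57 ± 0.092 and 0.39 ± 0.10. So were 3 genes of the Ndc80 complex, NDC80, SPC24 and SPC25, with 0.42 ± 0.12, 0.29 ± 0.074 and 0.42 ± 0.10, while NUF2, the fourth member of that complex, was not apart in both dyes and differed by -0.30 ± 0.10. Among the 6 time points the list mean was highest at 90 min, and 19 of 26 members were highest at 85 or 90 min.

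**Figure D2:**
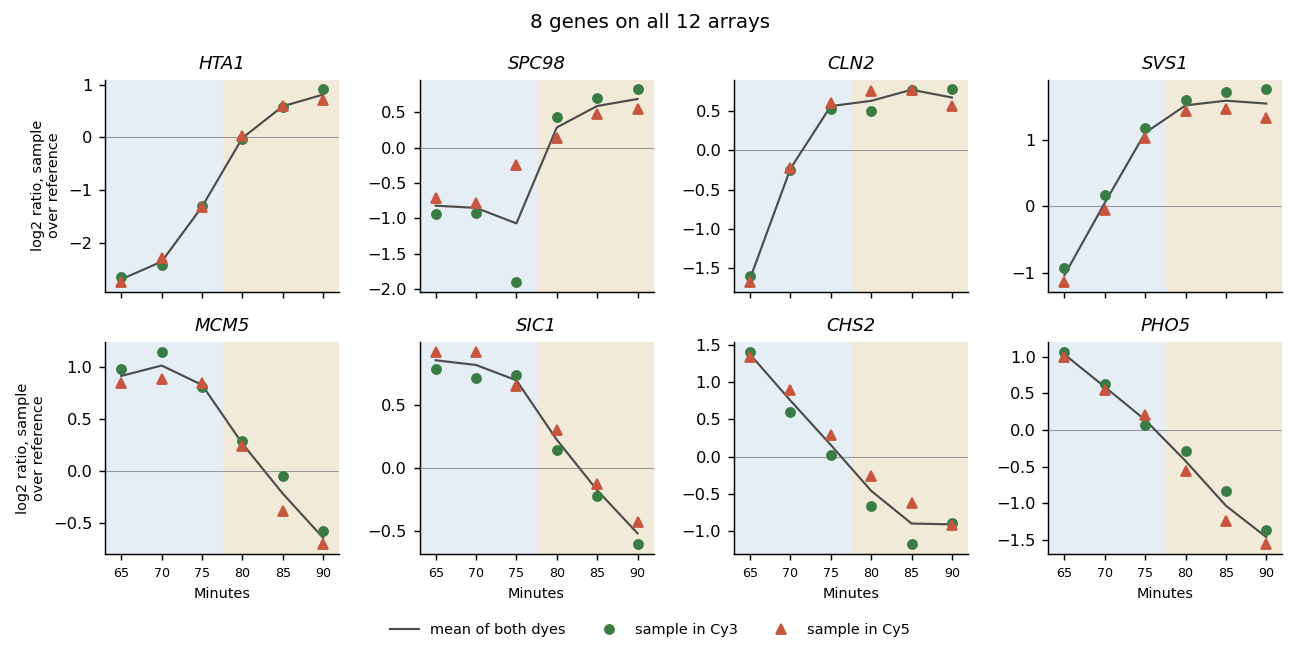
Log2 ratio of sample over reference for 8 genes on each of the 12 arrays, by minutes after release, with 65 to 75 min on blue ground and 80 to 90 min on sand. The widest gap between dye orientations is that of SPC98 at 75 min, -1.89 in Cy3 and -0.24 in Cy5. CLN2 is near its final level at 75 min, while SVS1 stands at 1.10 there and at 1.51 to 1.58 from 80 to 90 min.

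Genes for origin licensing were mostly lower at 80 to 90 min. Of the 10 licensing genes 6 were apart and lower and 1 was apart and higher, with a median difference of -0.76. MCM5, a subunit of the replicative helicase, stood at 0.26, -0.22 and -0.65 at 80, 85 and 90 min, against 0.91, 1.01 and 0.83 at 65, 70 and 75 min (difference -1.12 ± 0.21, adjusted p = 0.0618). MCM7 had 0.024, -0.46 and -0.68 at 80, 85 and 90 min, against 0.78, 0.73 and 0.43 at 65, 70 and 75 min (difference -1.02 ± 0.18, adjusted p = 0.0618). Neither gene overlapped between windows, and in the later window 80 min was highest and 90 min lowest. MCM2, MCM4, MCM6 and CDC6, the loader of the helicase, were apart as well, by -0.59 ± 0.13 (MCM6) to -0.88 ± 0.19 (CDC6). MCM3 differed by -0.78 ± 0.21 but was not apart in both dyes. ORC1, of the origin recognition complex, was the member apart and higher, with 0.0011, 0.011 and 0.05 at 80, 85 and 90 min, against -0.25, -0.29 and -0.38 at 65, 70 and 75 min (difference 0.33 ± 0.061, adjusted p = 0.0618), and with windows moved 5 min earlier it differed by -0.028. ORC6, another gene of that complex, and TAH11, whose protein helps load the helicase, were not apart in both dyes and differed by 0.22 ± 0.07 and 0.025 ± 0.074.

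The SIC1 cluster, expressed in late mitosis and early G1, had 4 of 19 members apart and lower, none higher, and a median of -0.49. With windows moved 5 min earlier that median was 0.30. SIC1, the inhibitor of S-phase Cdk, had 0.22, -0.18 and -0.52 at 80, 85 and 90 min, against 0.85, 0.82 and 0.69 at 65, 70 and 75 min (difference -0.95 ± 0.17, adjusted p = 0.0618). PCL9, a Pho85 cyclin of early G1, had 0.64, 0.046 and -0.74 at 80, 85 and 90 min, against 1.42, 1.66 and 1.32 at 65, 70 and 75 min (difference -1.49 ± 0.32, adjusted p = 0.068). PST1, a wall protein, and CHS1, a repair chitin synthase, were the others apart, with -1.12 ± 0.29 and -0.65 ± 0.18. Under windows moved 5 min earlier the CHS1 difference was 0.13, and its level at 75 min was 0.64.

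Genes of daughter separation differed among themselves in timing. EGT2, needed for separation after cytokinesis, had 0.66, 0.049 and -0.30 at 80, 85 and 90 min, against 0.33, 1.07 and 1.08 at 65, 70 and 75 min, highest at 70 and 75 min. ASH1, a repressor made in daughter cells, had 0.48, -0.18 and -0.69 at 80, 85 and 90 min, against 0.75, 1.45 and 0.99 at 65, 70 and 75 min and was highest at 70 min. Its value at 65 min was 0.16 in Cy3 and 1.33 in Cy5, and at 70 min it read 1.36 in Cy5. The step of ASH1 from 65 to 70 min thus rested on a single array. DSE2, a glucanase of the daughter wall, had 0.25, -0.031 and 0.08 at 80, 85 and 90 min, against -3.02, -1.13 and -0.17 at 65, 70 and 75 min, so that it was lowest at 65 min and highest at 80 min (difference 1.54 ± 0.64, adjusted p = 0.226). DSE1 ran the same way, with 0.87 ± 0.47 and overlapping windows. Of the 19 genes, 14 were highest at 70 or 75 min.

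Mitotic genes of the CLB2 cluster were the largest group apart and lower, with 15 of 21 members and 1 member apart and higher, and a median of -0.80. CHS2, the chitin synthase of the primary septum, had -0.46, -0.90 and -0.91 at 80, 85 and 90 min, against 1.37, 0.75 and 0.16 at 65, 70 and 75 min (difference -1.51 ± 0.29, adjusted p = 0.0618). HOF1, which acts in the cytokinetic ring, had -0.51, -0.69 and -1.22 at 80, 85 and 90 min, against 1.37, 0.70 and 0.23 at 65, 70 and 75 min (difference -1.57 ± 0.30, adjusted p = 0.0618). Both were lower at each later time point from 65 to 85 min, and their windows did not overlap. CLB2, the main mitotic cyclin, stood at -0.57, -0.68 and -0.43 at 80, 85 and 90 min, against 0.93, 0.32 and -0.21 at 65, 70 and 75 min (difference -0.91 ± 0.26, adjusted p = 0.113). IQG1, KIN3, CDC20 and DBF2 were lower by similar amounts, with differences from -0.94 ± 0.19 (DBF2) to -1.03 ± 0.22 (KIN3). SWI5, which encodes an activator of SIC1, was apart and lower, with -0.67 ± 0.19. CLB3, a cyclin of S phase to mitosis, was the member apart and higher, with 0.33, 0.28 and 0.26 at 80, 85 and 90 min, against -0.11, -0.074 and -0.035 at 65, 70 and 75 min (difference 0.36 ± 0.057, adjusted p = 0.0618). CLB4 differed by 0.39 ± 0.078 and was not apart in both dyes.

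**Figure D3:**
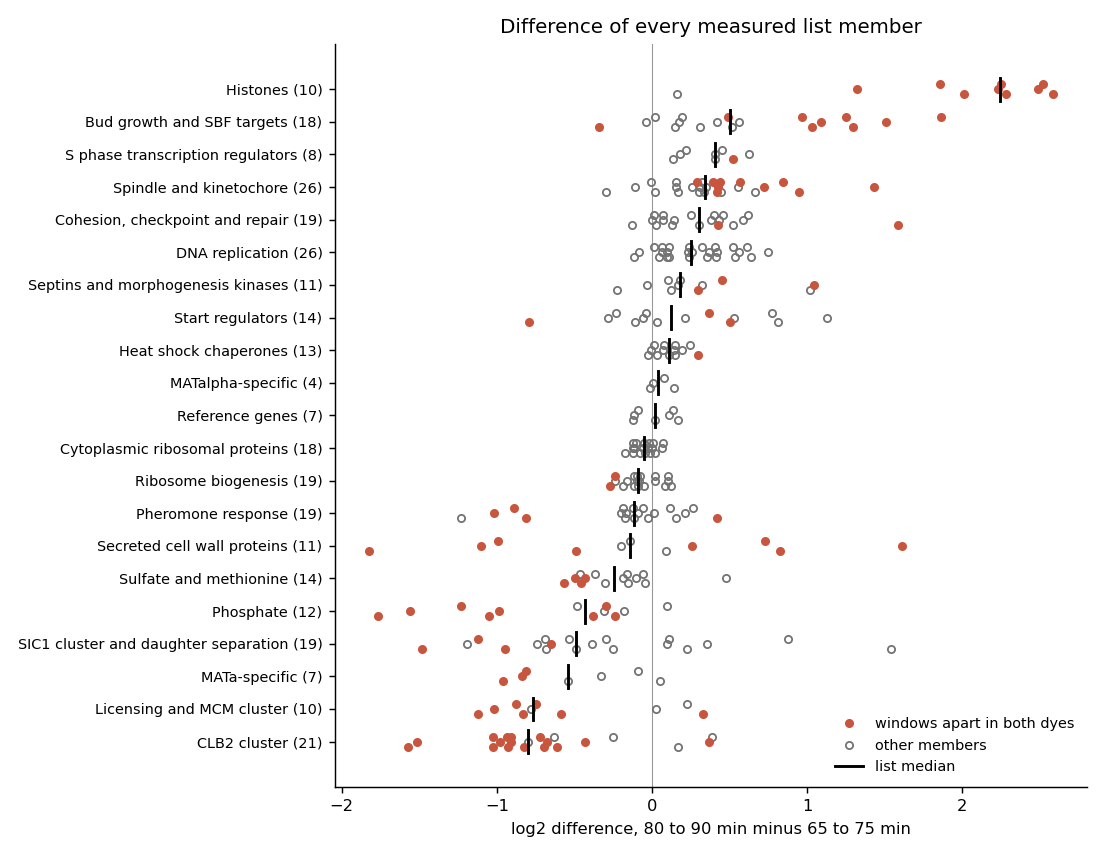
Log2 difference of 80 to 90 min minus 65 to 75 min for every measured member of the 21 lists, ordered by list median (black bar), with filled points for genes whose windows were apart in both dyes. The 8 core histone genes lie between 1.85 and 2.59, with HHO1 at 1.32 and HTZ1 at 0.16, and most CLB2 cluster, licensing and phosphate members lie below 0.

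Phosphate genes had 8 of 12 members apart and lower and none higher, with a median of -0.43. PHO5, the repressible acid phosphatase, had -0.42, -1.03 and -1.46 at 80, 85 and 90 min, against 1.03, 0.59 and 0.14 at 65, 70 and 75 min (difference -1.56 ± 0.30, adjusted p = 0.0624). PHO3, its constitutive neighbour of nearly the same sequence, had -0.63, -1.15 and -1.59 at 80, 85 and 90 min, against 1.10, 0.65 and 0.17 at 65, 70 and 75 min (difference -1.77 ± 0.29, adjusted p = 0.0618), and cross-hybridisation between them was not tested. Neither passed the threshold, although all values at 80 to 90 min were negative and all at 65 to 75 min positive. PHO89, a sodium-phosphate transporter, had -0.52, -1.13 and -1.41 at 80, 85 and 90 min, against -0.071, 0.075 and -0.10 at 65, 70 and 75 min (difference -0.99 ± 0.21, adjusted p = 0.0678). VTC1 and VTC3, of the polyphosphate polymerase, were lower by a smaller amount, with -0.38 ± 0.056 and -0.30 ± 0.058. PHO84, the main phosphate transporter, was low throughout and differed by -0.18 ± 0.10.

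Secreted wall proteins divided evenly, with 4 of 11 members apart and higher and 4 apart and lower. CWP1, a wall mannoprotein, had 0.48, 0.73 and 0.98 at 80, 85 and 90 min, against -1.53, -1.05 and -0.048 at 65, 70 and 75 min (difference 1.61 ± 0.35, adjusted p = 0.0688). GAS1, a glucan-elongating enzyme, had 0.44, 0.58 and 0.68 at 80, 85 and 90 min, against -0.36, -0.27 and 0.14 at 65, 70 and 75 min (difference 0.73 ± 0.14, adjusted p = 0.0618). In both genes 75 min was the highest point of the earlier window and lay below 80 min. GAS3 and CIS3 were higher too, with 0.82 ± 0.25 and 0.26 ± 0.076. YGP1, a secreted glycoprotein, had 0.91, 0.077 and -0.30 at 80, 85 and 90 min, against 2.46, 2.15 and 1.53 at 65, 70 and 75 min (difference -1.82 ± 0.34, adjusted p = 0.0618). PIR1 and HSP150, covalently bound wall proteins, and SED1 were lower, with -1.0 ± 0.24, -1.10 ± 0.25 and -0.49 ± 0.12.

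Mating genes were low compared with arrest but still differed between the windows for some members. The direction of all ratios was itself read from pheromone genes being high at 0 min. The sign of their values at 0 min, here and below, was set by that choice and is no separate result. MATa-specific genes had 3 of 7 members apart and lower, with a median of -0.54. STE2, the alpha-factor receptor, had -0.84, -1.30 and -1.41 at 80, 85 and 90 min, against -0.36, -0.34 and -0.41 at 65, 70 and 75 min (difference -0.81 ± 0.14, adjusted p = 0.0618). STE6, the a-factor exporter, had -0.64, -0.93 and -1.34 at 80, 85 and 90 min, against -0.018, 0.076 and -0.085 at 65, 70 and 75 min (difference -0.96 ± 0.17, adjusted p = 0.0618). Both varied little from 65 to 75 min and were lower from 80 min on. MFA2, an a-factor gene, was the third, with -0.84 ± 0.15. At 0 min these genes read 2.05 (STE2), 0.73 (STE6) and 1.59 (MFA2), and the MATa-specific list averaged 2.90.

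Of 19 pheromone response genes 3 were apart and lower, STE2 among them, and 1 was apart and higher, with a median of -0.12. Among all frames 3.91% were apart and lower and 5.05% apart and higher. FAR1, the Cdk inhibitor of pheromone arrest, had -0.047, -0.69 and -1.03 at 80, 85 and 90 min, against 0.37, 0.59 and 0.33 at 65, 70 and 75 min (difference -1.02 ± 0.23, adjusted p = 0.0752). GPA1, the G-protein alpha subunit, had -0.35, -0.74 and -1.05 at 80, 85 and 90 min, against 0.15, 0.34 and 0.037 at 65, 70 and 75 min (difference -0.89 ± 0.18, adjusted p = 0.063). Their windows did not overlap, and each was lowest at 90 min. KAR4, a partner of Ste12, was the member apart and higher, with 0.42 ± 0.10. FUS1, a cell fusion gene that pheromone induces strongly, overlapped, with -0.0051, -0.067 and -0.50 at 80, 85 and 90 min, against -0.40, -0.16 and -0.057 at 65, 70 and 75 min and 3.72 at 0 min. The value of PRM1 at 70 min, 3.81, came from 1 array at the limit of the deposited scale, 6.64 in Cy3 against 0.97 in Cy5.

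Sulfate and methionine genes held 4 of 14 members apart and lower and none higher, with a median of -0.24. MET3, ATP sulfurylase, had -0.0091, -0.13 and -0.095 at 80, 85 and 90 min, against 0.47, 0.54 and 0.47 at 65, 70 and 75 min and shared the second smallest adjusted p of the comparison (difference -0.57 ± 0.062, adjusted p = 0.0544). MET5, MET2 and MUP1 were the others, with -0.43 ± 0.075, -0.50 ± 0.10 and -0.46 ± 0.10. The SUL1 value of -1.41 at 75 min came from Cy5 (-2.98) and not from Cy3 (0.17). Cytoplasmic ribosomal protein genes showed 0 of 18 apart and a median of -0.05, and the 7 reference genes, such as ACT1 and TDH3, 0 of 7 and 0.018. Ribosome biogenesis genes had 2 of 19 apart and lower, NOP56 (-0.27 ± 0.058) and RPA190 (-0.24 ± 0.075). Heat shock chaperones had 1 of 13 apart and higher, HSP42 (0.29 ± 0.065). Both counts are of 1 or 2 genes, beside 3.91% lower and 5.05% higher among all frames.

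The 12 frames apart and furthest above 0, chosen after their values were seen, were 8 core histone genes with TOS6, CWP1, PDS1 and PSA1. PSA1, which makes the GDP-mannose used for wall mannoproteins, had 0.20, 0.48 and 0.57 at 80, 85 and 90 min, against -1.52, -1.13 and -0.67 at 65, 70 and 75 min (difference 1.53 ± 0.21, adjusted p = 0.0556). The 12 furthest below 0 were MRH1, YGP1, PHO3, HOF1, PHO5, AIM44, CHS2, PCL9, YNL058C, MMR1, NCE102 and EIS1. MRH1, a plasma membrane protein, had 0.28, -0.58 and -1.33 at 80, 85 and 90 min, against 1.59, 1.48 and 0.91 at 65, 70 and 75 min (difference -1.88 ± 0.39, adjusted p = 0.0662). MMR1, the adaptor that carries mitochondria into the bud, had -0.39, -0.90 and -0.93 at 80, 85 and 90 min, against 1.13, 0.69 and 0.10 at 65, 70 and 75 min (difference -1.38 ± 0.27, adjusted p = 0.0618). NCE102 and EIS1, components of eisosomes under the plasma membrane, differed by -1.38 ± 0.28 and -1.26 ± 0.24, and AIM44, a bud neck protein, by -1.52 ± 0.34. All 24 frames had the same sign in each dye orientation, as the choice of frames required.

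Dates in the titles split the Cy5 arrays into 3 sets within these times, while the 6 Cy3 arrays shared 1 date. The Cy3 value of a list is therefore a value within 1 date. Histones had a median difference of 2.14 in Cy3 and 2.34 in Cy5, the CLB2 cluster -0.86 in Cy3 and -0.79 in Cy5, and the licensing genes -0.75 in Cy3 and -0.74 in Cy5. The DNA replication list had 0.34 in Cy3 and 0.16 in Cy5. Within the date that covers 75 and 80 min in Cy5, the step between these points was 1.12 for histones, -0.20 for the CLB2 cluster and -0.33 for licensing genes. A fit over the 12 arrays, with the title date as a block and a correlation of 0.172 between arrays of a time point, called 106 frames higher and 66 lower. It enters both dye orientations of each time point, which are technical replicates, so the number of arrays and the date term changed together, and their parts in these counts cannot be told apart. Only the Cy3 date and the Cy5 date of 75 and 80 min cover both windows. The difference in that fit therefore rests mainly on the 6 Cy3 arrays and on 75 and 80 min in Cy5. Each date also holds arrays of 1 dye orientation only, so date and dye are not separate. HTA1, MCM5 and CHS2 had adjusted p of 0.0187, 0.0297 and 0.0383 in that fit and of 0.0556, 0.0618 and 0.0618 on dye-pair means. Across all frames the Cy3 and Cy5 differences correlated with r = 0.51, a description over frames that share arrays.

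The entry without arrest was then set against the first, 15 to 25 min against 0 to 10 min, when cells came straight from pheromone. limma called 0 frames in that first comparison by itself, with 1493 at an unadjusted p under 0.05. The test of the difference between the entries, over 12 time points and 24 arrays, found 60 frames (0.967%) with a larger value in the second entry and 31 (0.5%) with a smaller one. All 91 had the same sign in each dye orientation, though each call was made on the mean of both dyes. These counts rested on single time points: they were 32 in all without 75 min, 568 without 10 min and 178 without 15 min, 1 without 5 min, 1 without 90 min, and 0 without any other time point.

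DSE2 differed furthest above 0, with 1.54 at the second entry and -2.92 at the first (second minus first 4.46 ± 0.85, adjusted p = 0.0406). Of the 6 time points it was lowest at 65 min. AGA1, a mating agglutinin subunit, had -0.17 at the second entry and -3.28 at the first (second minus first 3.11 ± 0.61, adjusted p = 0.0406), and PRM3, needed for nuclear fusion, had -0.088 at the second entry and -2.37 at the first (second minus first 2.28 ± 0.45, adjusted p = 0.0406). PRM5, a pheromone-regulated membrane protein, had 0.31 at the second entry and -1.66 at the first (second minus first 1.97 ± 0.32, adjusted p = 0.0406), and NFG1 had 1.40 at the second entry and -1.18 at the first (second minus first 2.58 ± 0.47, adjusted p = 0.0406). At 0 min, in arrest, AGA1 read 5.79 and PRM3 read 3.90, on the direction that was inferred from pheromone genes at that time. TOS1 was also called, with 0.49 at the second entry and -0.20 at the first (second minus first 0.69 ± 0.12, adjusted p = 0.0406).

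YGP1 differed furthest below 0, with -1.82 at the second entry and 1.19 at the first (second minus first -3.01 ± 0.56, adjusted p = 0.0406). HOF1 had -1.57 at the second entry and 0.38 at the first (second minus first -1.95 ± 0.41, adjusted p = 0.0491), and the cyclin gene CLB1 had -0.83 at the second entry and 0.55 at the first (second minus first -1.38 ± 0.26, adjusted p = 0.0406). Both are mitotic genes, and both had a difference below 0 at the second entry and above 0 at the first. RNH201, a subunit of ribonuclease H2, was the only DNA replication gene called, with 0.11 at the second entry and 1.52 at the first (second minus first -1.41 ± 0.28, adjusted p = 0.0406). SIT1, a siderophore transporter, had -0.71 at the second entry and 0.91 at the first (second minus first -1.62 ± 0.30, adjusted p = 0.0406). MLO50 and YEL076C-A shared this pattern of signs. MLO50 had -0.55 at the second entry and 1.42 at the first (second minus first -1.97 ± 0.38, adjusted p = 0.0406). The frame YEL076C-A had -0.54 at the second entry and 1.10 at the first (second minus first -1.64 ± 0.31, adjusted p = 0.0406).

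Lists differed in how far the entries matched. The histone median was 2.24 at the second entry and 2.12 at the first, and 0 of 10 histone genes passed the test of the difference. DNA replication genes had a median of 0.25 at the second entry and 1.27 at the first, with 26 of 26 members smaller at the second entry and 1 called. Cohesion, checkpoint and repair genes had a median of 0.31 at the second entry and 1.31 at the first, with 17 of 19 smaller and 0 called. The second windows cut the G1 wave at 75 min, as described, so list medians of the 2 entries do not cover the same stretch of it. Pheromone response genes had a median of -0.12 at the second entry and -1.91 at the first, with 19 of 19 members above the first entry and 2 called. Since the direction of the ratios was read from pheromone genes at 0 min, the sign of their change at the first entry is no separate result.

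**Figure D4:**
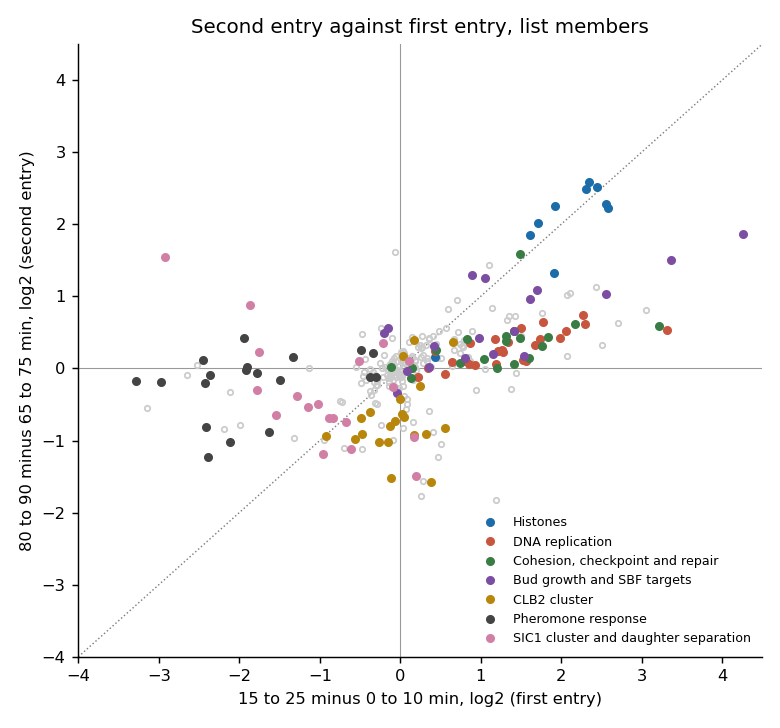
Log2 difference at the second entry (80 to 90 minus 65 to 75 min, vertical) against that at the first (15 to 25 minus 0 to 10 min, horizontal) for each measured list gene, with 7 lists in colour and the line of equal values dotted. Core histone genes lie near that line, the 26 DNA replication genes lie below it, and the 19 pheromone response genes lie above it.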

How the data were processed

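The values are the authors' deposited log ratios, 1 per open reading frame and array, for 50 arrays. Their scaling is not stated by the labels. The values deposited by the authors were read as log10 ratios, Cy5 over Cy3, since they end exactly at -2 and 2 and dye-swapped arrays ran against each other (highest r -0.196 as deposited). The turned direction was read from pheromone genes, which are high at 0 min. Arrays with the sample in Cy3 were turned, values were converted to log2 and the dye pair was averaged, since the design text calls it a technical replicate. Turned values of the 6 pairs used correlated with r = 0.385 to 0.592. Of the 6217 lines 13 named no frame, and 6204 were kept, of which 5704 matched a locus tag of the R64 yeast annotation and 500 kept their systematic name. The 12 arrays held 75 missing values and 66 at the limit. Their number limits the precision.

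Windows were compared with limma 3.58.1 in R 4.3.3 (lmFit, eBayes, Benjamini-Hochberg over all frames), with 3 time points each. p-values measure only the spread between time points of 1 course. Each ± value is limma's moderated standard error, in which the spread of a gene is drawn toward that of all frames. The fit was tested on simulated data with independent noise at each time point. Those data held no movement of the cell cycle inside a window, so the test does not cover it. The members, windows and 21 lists (305 genes measured) were chosen with earlier results of these data known. Named genes were to be the 12 largest differences each way past the threshold, up to 4 passing members per list and direction, the 5 largest differences each way between the entries, and any list member with its outcome. As 1 gene passed, the 12 largest each way among frames apart in both dyes were added. Alternatives were each dye, title date, scaling, limit values, filters, windows and left-out time points. Sequences were not used here. The result of 1 list member is not reported here.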

Additional observations from a re-analysis of the deposited data

Results flagged for a closer look

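The change at the second entry differed from that at the first, by limma's test of the difference itself, in 91 frames, and the 5 furthest each way are given here as second minus first on the log2 scale. The positive differences were 4.46 for DSE2, 3.11 for AGA1, 2.58 for NFG1, 2.28 for PRM3 and 1.97 for PRM5. The negative ones were -3.01 for YGP1, -1.97 for MLO50, -1.95 for HOF1, -1.64 for YEL076C-A and -1.62 for SIT1. Each of these 10 had the same sign in Cy3 and Cy5 alone, as the choice of frames required. Time since arrest and the phase covered by the windows differ together between the entries and cannot be told apart.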

How the results depend on the processing

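Counts of calls moved with nearly every choice. Counts of frames higher and lower at 80 to 90 min (1 and 0) were 24 and 21 in Cy3 alone, 0 and 0 in Cy5 alone, 2 and 3 in Cy5 with the title date as a block, 106 and 66 over 12 arrays with that block, where dye-swapped arrays of a time point count separately, 16 and 3 after quantile normalization, 105 and 70 with limit values missing, 21 and 5 with a variance trend, 0 and 0 with 12 time points in 1 fit, 99 and 100 for 85 and 90 against 65 and 70 min, 239 and 190 at an adjusted p under 0.10, and 0 and 1 with windows moved 5 min earlier. Leaving out 1 time point gave 0 to 163 higher and 0 to 106 lower, with both maxima without 75 min. Centred arrays and frames measured on all 12 arrays gave 1 and 0. In the Cy5 fit with the date block, only 75 and 80 min share a date across the windows, so its differences rest on those arrays alone. In the fit over 12 arrays with that block the Cy3 arrays share a date as well. Its differences rest mainly on Cy3 and on 75 and 80 min in Cy5. The first entry gave 0 and 0 in each dye alone, and 0 to 281 higher and 0 to 132 lower without 1 time point, the maxima without 10 min.

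The 91 differences between entries became 14 in Cy3 alone, 0 in Cy5 alone, 0 without 0 and 65 min, 158 with limit values missing and 0 to 568 without 1 time point, and centring gave 86. Frames apart in both dyes (310 higher and 240 lower) numbered 771 and 828 by Cy3 alone, 808 and 694 by Cy5 alone, 824 and 876 for 85 and 90 against 65 and 70 min, and 392 to 602 and 305 to 548 without 1 time point. Centring gave 282 and 275, quantile normalization 299 and 264, limit values missing 310 and 240, and earlier windows 317 and 330. The cause of these shifts was not tested.

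Over 72 genes followed through the alternatives, 3 reversed, all with windows moved 5 min earlier: CDC11 (-0.034), ORC1 (-0.028) and CHS1 (0.13). That count leaves out other genes described above whose sign changed with the same windows. Among them SWI4 went from -0.28 to 0.47, EGT2 from -0.69 to 0.43 and CLB6 from -0.06 to 0.90. Across 1368 pairs of gene and alternative, a call was gained in 239 and lost in 8, all 8 for SPC98. Of 273 list medians under alternatives, 41 moved by more than the spread between time points, and that of the SIC1 cluster, -0.49, was 0.30 with windows moved 5 min earlier. No paired analysis was possible because replicate numbers name dye orientations of the same time point.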
